A study of Mus musculus with 6 samples.

Results

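The genes described here encode lysosomal proteins: 27 hydrolases, lipid-handling proteins and membrane proteins, with the cathepsins left out. The list was drawn up by gene symbol, with earlier results of these data known. Of the 27 genes, 26 had at least 1 probe set with a single gene symbol, and these made up 58 of the 45037 probe sets tested. Cd63 had no such probe set and is not analysed here.

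All samples were lymphatic endothelial cells (LECs), which form the inner lining of lymphatic vessels. The mice were balb-c/nude, a strain without a thymus and so without mature T cells, and the LECs came from their mammary skin in 3 healthy samples and from MDA-MB-435 xenografts, taken 8 weeks after the tumour cells were injected, in the other 3. MDA-MB-435 is a human line that was handled as breast cancer for decades before it was traced to melanoma, so the vessels were of the mouse and the cancer cells human. Sections were stained briefly for the hyaluronan receptor LYVE-1, which lymphatic vessels and also some macrophages carry, and the stained cells were cut out by laser capture microdissection. The labels call the 3 samples of a group biological replicates and do not say whether each came from its own animal. The p-values therefore measure the spread between these samples only. The question of the design is how the expression of LECs in a tumour departs from that of LECs in normal tissue.

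Lysosomes are acidic organelles in which hydrolases break down glycans, lipids and proteins delivered by endocytosis and autophagy. Most of the soluble hydrolases receive a mannose 6-phosphate tag in the Golgi apparatus and are carried to the lysosome by receptors for it, whereas the membrane proteins travel by sorting signals in their tails. Many lysosomal genes are under the transcription factors TFEB and TFE3, which bind E-box sequences of the form CACGTG in their promoters. Macrophages are rich in lysosomes, and endothelial cells use them among other things to degrade internalised receptors.

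Each array gave 1 signal per probe set, which is given here on the log2 scale, and a difference is always tumour minus healthy skin in log2 units. A gene was represented by its probe set with the highest mean over the 6 arrays. A signal was called above background on an array where it exceeded that array's background, a value between 2.96 and 3.91 taken as the 95th percentile over the 27 probe sets for bacterial controls. Endothelial and lymphatic markers were present: Prox1, Pdpn and Flt4 were above background on all 6 arrays and Lyve1 on 5, the exception being healthy-skin replicate 1 (3.21), while the transcription factor gene Foxc2 was above it on 1 array only. Of the 9 measured LEC markers, 8 had a positive difference (median 0.95), and all 11 pan-endothelial markers did (median 1.19), beside 57.34% of all genes. Markers of other cells were present as well. Keratinocyte markers averaged 6.34 to 7.08 in the healthy-skin samples and 4.19 to 5.19 in the tumour samples, with 13 of 14 negative (median -1.69). Fibroblast markers averaged 7.66 to 9.51 in healthy skin and 5.90 to 9.20 in tumours, with 6 of 9 negative (median -0.88). Adipocyte markers had 5 of 7 negative (median -0.50), but Adipoq and Cidec were above background on no array. Sebocyte markers had 4 of 5 negative (median -3.01). Macrophage markers set 1 library apart: their mean level was 7.52 in tumour replicate 2 and between 5.22 and 5.66 on the other 5 arrays, so the differences it moves most are also given without it.

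As an identity feature that the choice of genes did not use, promoters of the members were read from RefSeq (GRCm38.p6), from 250 bases before to 50 bases after each listed start. The table held 26 promoters of 24 of the 27 members. Npc1, Asah1 and Galns had no entry. The palindrome CACGTG, which reads the same on both strands, occurred in promoters of 8 of these 24 genes (33.3%), against 8.09% of the 27025 genes in the table. Counted by promoter, the shares were 8 of 26 (30.8%) and 7.15% of 32851. A match describes these letters and does not show binding. The promoters of Lamp1, Cln3, Mcoln1 and Gla are shown because each holds at least 2 copies, and that of Laptm4a because the gene had the highest positive difference of the members and holds none. They are written 5′ to 3′ on the gene's own strand, with CACGTG in capitals. Lamp1 lies at chr8:13158911-13159210 (plus strand), Cln3 at chr7:126583187-126583486 (minus), Mcoln1 at chr8:3500269-3500568 (plus), Gla at chrX:134600956-134601255 (minus) and Laptm4a at chr12:8921057-8921356 (plus).
Lamp1: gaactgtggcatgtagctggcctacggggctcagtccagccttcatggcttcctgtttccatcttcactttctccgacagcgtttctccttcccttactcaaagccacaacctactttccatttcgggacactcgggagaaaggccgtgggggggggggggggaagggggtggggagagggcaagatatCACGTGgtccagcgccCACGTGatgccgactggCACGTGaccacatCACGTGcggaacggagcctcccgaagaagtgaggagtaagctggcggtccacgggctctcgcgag
Cln3: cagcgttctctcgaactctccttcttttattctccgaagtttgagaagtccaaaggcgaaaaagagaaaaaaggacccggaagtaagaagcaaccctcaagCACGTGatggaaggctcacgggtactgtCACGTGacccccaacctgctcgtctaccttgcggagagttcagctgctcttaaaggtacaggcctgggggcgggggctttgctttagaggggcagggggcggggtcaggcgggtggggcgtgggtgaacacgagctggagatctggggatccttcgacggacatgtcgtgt
Mcoln1: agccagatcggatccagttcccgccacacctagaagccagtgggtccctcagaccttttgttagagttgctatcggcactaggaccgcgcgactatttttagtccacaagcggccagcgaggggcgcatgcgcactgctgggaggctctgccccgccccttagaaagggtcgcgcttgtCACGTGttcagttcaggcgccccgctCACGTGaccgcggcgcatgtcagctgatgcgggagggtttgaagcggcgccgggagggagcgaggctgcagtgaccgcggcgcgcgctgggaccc
Gla: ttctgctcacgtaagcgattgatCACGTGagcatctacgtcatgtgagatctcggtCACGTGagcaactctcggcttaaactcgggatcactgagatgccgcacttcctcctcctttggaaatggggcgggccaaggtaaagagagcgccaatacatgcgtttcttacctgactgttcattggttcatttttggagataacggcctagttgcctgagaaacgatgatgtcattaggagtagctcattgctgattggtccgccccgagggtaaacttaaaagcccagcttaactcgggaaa
Laptm4a: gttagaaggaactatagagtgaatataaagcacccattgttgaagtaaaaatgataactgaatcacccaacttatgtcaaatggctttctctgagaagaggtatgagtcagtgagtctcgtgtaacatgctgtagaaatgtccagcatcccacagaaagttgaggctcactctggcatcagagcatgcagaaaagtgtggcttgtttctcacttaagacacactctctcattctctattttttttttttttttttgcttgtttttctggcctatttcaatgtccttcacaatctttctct

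The 4 copies in the Lamp1 promoter began 15, 28, 45 and 61 bases before the start, and the 2 in Mcoln1 lay at 45 and 71 bases. Glb1, Sgsh and Naglu had 1 copy each, 48, 29 and 73 bases before the start. Farther out were the single copy of Gaa at 140 bases and the pairs of Cln3 (121 and 149) and Gla (194 and 227). The promoter shown for Cln3 belongs to the downstream one of its 2 listed starts, and the other held no copy. The 8 members with a copy had a median difference of -0.26 with 3 positive, and the 15 measured members whose promoters held none had a median of -0.06 with 7 positive. Both sets spanned zero widely, from -1.02 to 1.10 and from -0.71 to 2.03. In the other lysosomal lists, genes with CACGTG numbered 4 of 9 cathepsins, 5 of 12 tagging and sorting genes, 4 of 11 proton pump subunits, 3 of 10 regulators, 1 of 13 other hydrolases and 1 of 16 other membrane proteins.

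**Figure D1:**
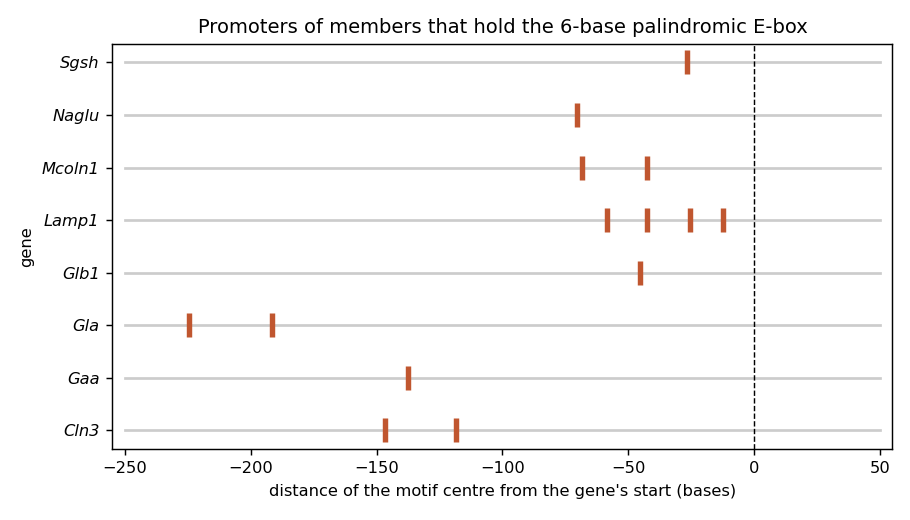
Positions of the palindrome CACGTG in the promoters of the 8 members that hold it. The horizontal axis gives the distance in bases from the gene's start (dashed line at 0), each grey line is 1 promoter and each mark the centre of 1 copy; Lamp1 has 4 copies within 61 bases of its start, and those of Gla lie farthest away.

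Between the groups, no lysosomal gene passed the test. Of the 58 member probe sets, 0 had a limma adjusted p under 0.05, against 0.00444% of all probe sets, and their adjusted p ranged from 0.644 to 1. Counted by gene, 0 of 26 had one, against 0.0055% of all genes. At an unadjusted limma p under 0.05 there were 4 of the 58 probe sets (6.9%), beside 6.36% of all: 3 were higher in tumours (2.83% of all) and 1 lower (3.53% of all). By gene these were 2 of 26 (7.5% of all genes in either direction), both higher in tumours, namely Laptm4a and Cln3 (3.22% of all genes), and 0 were lower (4.28%). The groups did not overlap in 1 of 26 genes, Laptm4a, with tumours higher (6.58% of all genes), and in 0 with tumours lower (5.36%). By probe set they did not overlap in 2 of 58 with tumours higher (6.22% of all) and in 1 with tumours lower (4.91%). These shares are near those of all genes. By sign, 12 members were positive and 14 negative, with a median of -0.10, beside 57.34% positive and a median of 0.08 over all 18193 genes. The sign of the members' median was not stable. It was 0.02 after quantile normalization, 0.004 with a pseudocount of 16, and 0.26 with 18 of 26 positive when all probe sets of a gene were averaged. Omission of 1 array also gave positive medians in 3 cases, 0.02 for healthy-skin replicate 2, 0.02 for tumour replicate 1 and 0.27 for tumour replicate 3.

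The precision was limited by the 3 arrays per group. The 95% confidence interval of a member's difference extended by a median of 1.37 to either side, from 0.81 for Glb1 to 2.82 for Asah1, so differences of about that size would not have been resolved. Arrays were simulated with each probe set's own spread, and differences were planted in probe sets drawn from the whole array. At the threshold 0 of 50 planted differences of 1 and 6 of 50 of 2 came back. For differences of 4 and 8 these were 27 of 50 and 46 of 50. Members varied more than all genes. Their median standard deviation was 0.63 against 0.47 in healthy skin and 0.86 against 0.42 in tumours. The recovered shares therefore need not hold for the members. These medians were not matched for signal level: 4251 of the 18193 genes but 0 of the 26 members were above background on no array.

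**Figure D2:**
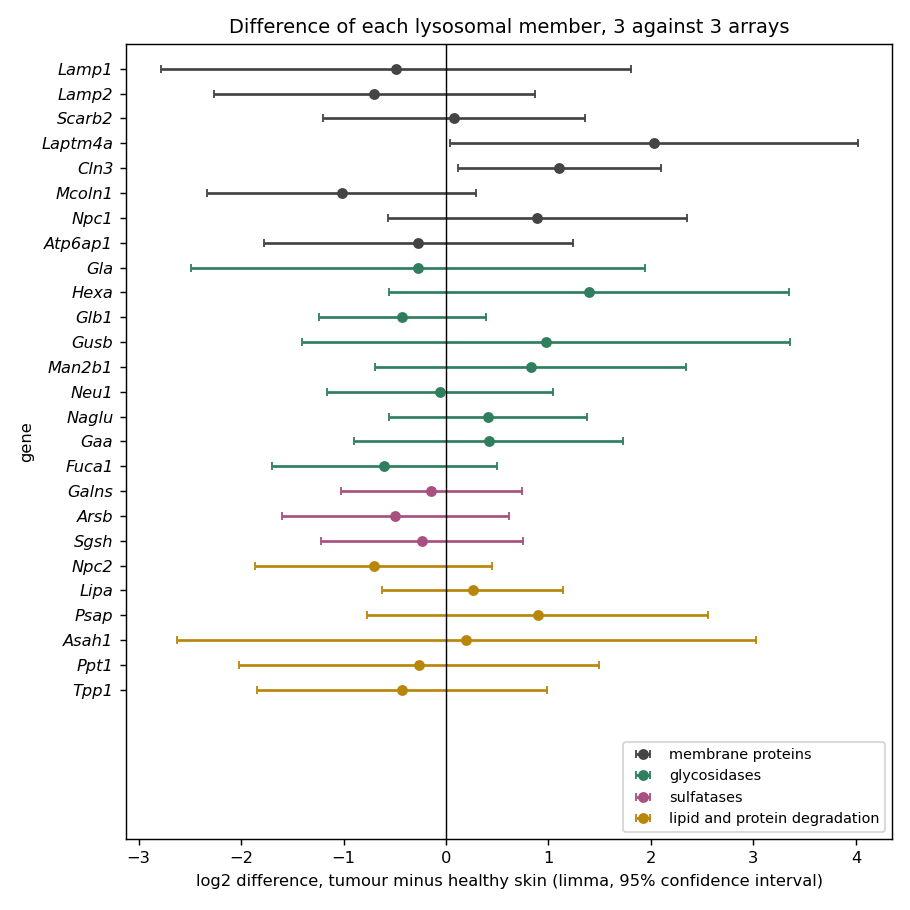
Log2 difference of each of the 26 measured members (horizontal axis, tumour minus healthy skin), 1 probe set per gene. Points are limma estimates from 3 against 3 arrays, bars are 95% confidence intervals and colours mark the role; the intervals of Laptm4a and Cln3 alone exclude zero, and neither passed the adjusted threshold.

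Among the membrane proteins, Laptm4a, which encodes a lysosome-associated transmembrane protein, had the highest difference. Its signal was 6.33, 7.61 and 8.11 in healthy-skin replicates 1, 2 and 3 and 8.35, 11.17 and 8.60 in tumour replicates 1, 2 and 3. Every tumour value lay above every healthy-skin value, but tumour replicate 1 and healthy-skin replicate 3 were close, and tumour replicate 2 stood far above the rest. The difference was 2.03 (standard error 0.84, 4.07-fold, 95% confidence interval 1.02 to 16.2, limma adjusted p = 0.778). Without tumour replicate 2 it was 1.13 (limma adjusted p = 0.75). Over the 14 alternative settings the difference ranged from 1.13 to 2.54.

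Cln3, the gene mutated in juvenile Batten disease, encodes a lysosomal membrane protein with a part in organelle clearance. Its signal was 4.06, 3.31 and 3.02 in healthy skin and 4.04, 5.14 and 4.53 in tumours. The groups overlapped, since healthy-skin replicate 1 lay just above tumour replicate 1. The difference was 1.10 (standard error 0.42, 2.15-fold, 95% confidence interval 1.08 to 4.28, limma adjusted p = 0.736), and without tumour replicate 2 it was 0.82 (limma adjusted p = 0.752). The other Cln3 probe set, also above background on all arrays and with nearly the same mean, differed by -0.06. Averaged over both, the gene differed by 0.52 (limma adjusted p = 0.789).

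Lamp1 and Lamp2, the abundant glycoproteins of the lysosome's limiting membrane, were near their healthy-skin levels in tumour replicates 1 and 2 and low in replicate 3. Lamp1 read 6.51, 8.13 and 6.70 in healthy skin and 7.25, 8.14 and 4.47 in tumours (difference -0.49, standard error 0.96, limma adjusted p = 0.948). The brightest Lamp2 probe set read 8.88, 9.49 and 8.60, and then 8.62, 9.40 and 6.85 (difference -0.70, standard error 0.66, limma adjusted p = 0.892). On both, tumour replicate 3 was the lowest of the 6 arrays. Without it the Lamp1 difference was 0.59 and that of Lamp2 0.02, and without tumour replicate 2 they were -1.25 and -1.26. Omission of healthy-skin replicate 2 gave 0.02 for Lamp1 and -0.45 for Lamp2, so the Lamp1 sign depended on single arrays. The other 3 Lamp2 probe sets differed by 0.13, 0.19 and -1.88, and the last of these was above background on 3 arrays only. Its values ranged from 3.04 to 7.99 within healthy skin.

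Scarb2, the gene of LIMP-2, which carries beta-glucocerebrosidase to the lysosome, differed by 0.08 with healthy skin between 5.87 and 7.28 and tumours between 5.75 and 7.32. Its sign turned without tumour replicate 2 (-0.23), tumour replicate 1 (-0.08) or healthy-skin replicate 1 (-0.29). A dimmer Scarb2 probe set differed by 1.52 (limma adjusted p = 0.847), with healthy skin at 3.73, 3.57 and 5.88 and tumours at 6.07, 6.97 and 4.71. Mcoln1 encodes TRPML1, the cation channel that releases lysosomal calcium. It had 3.93, 5.21 and 5.84 in healthy skin and 3.63, 4.62 and 3.68 in tumours, a difference of -1.02 (standard error 0.55, limma adjusted p = 0.852). Healthy-skin replicate 1 lay within the tumour range, and without it the difference was -1.55 (limma adjusted p = 0.477). The dimmer Mcoln1 probe sets differed by -0.37 and -0.22, so all 3 were negative. Atp6ap1, which encodes an accessory subunit of the proton pump that acidifies the lysosome, was tightly grouped in healthy skin (6.38, 6.46 and 6.37) and scattered in tumours (5.59, 7.64 and 5.16). Tumour replicates 1 and 3 thus lay below and replicate 2 above all healthy-skin values. The difference was -0.27 over all arrays and -1.03 without tumour replicate 2 (limma adjusted p = 0.558).

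**Figure D3:**
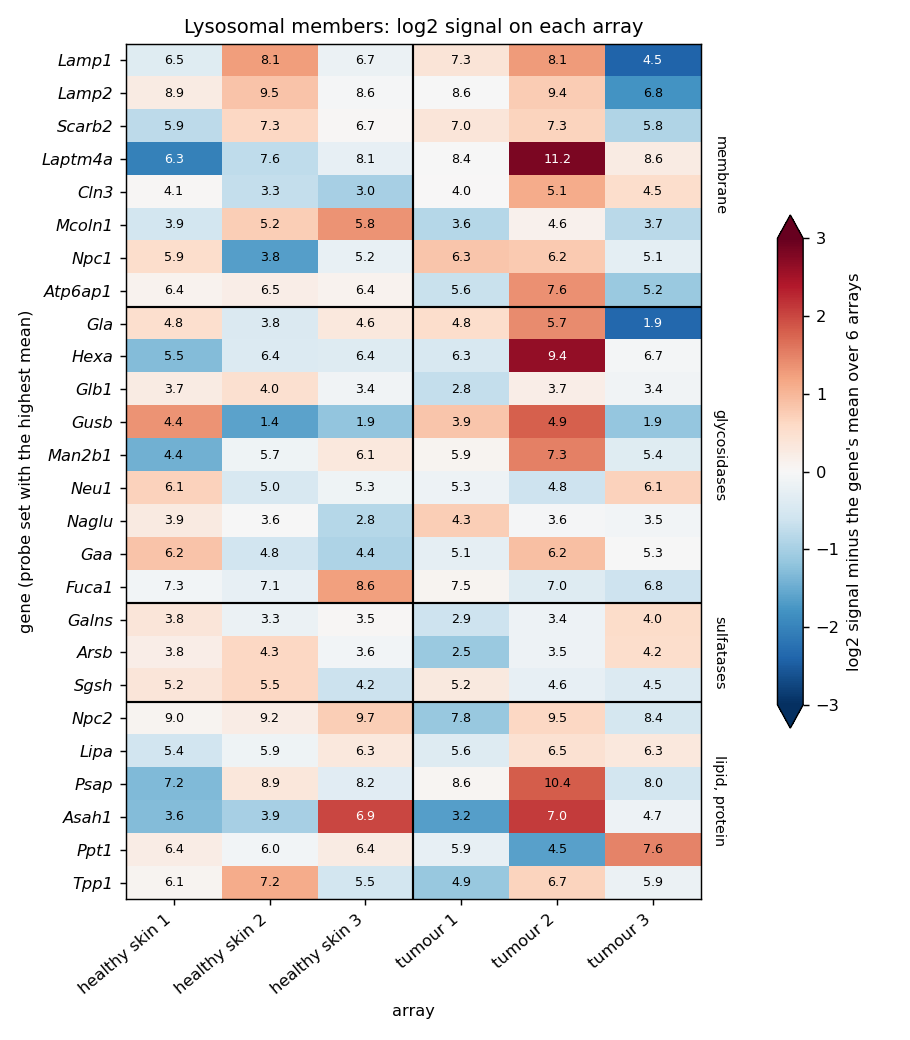
Log2 signal of the 26 measured members (rows, ordered by role) on the 6 arrays (columns), printed in each cell. The colour gives the signal minus the gene's mean over the 6 arrays, from -3 (blue) to 3 (red); tumour replicate 2 holds the highest value in 13 of the 26 rows.

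Cholesterol that reaches the lysosome in lipoproteins is freed by the acid lipase of Lipa, handed on by the soluble carrier Npc2 and passed through the membrane by Npc1. Npc1 read 5.95, 3.76 and 5.18 in healthy skin and 6.25, 6.18 and 5.12 in tumours. Only healthy-skin replicate 2 stood well below the others, and the difference was 0.89 (standard error 0.61, limma adjusted p = 0.87), or 0.29 without that array. Npc2 was bright on every array, with 9.02, 9.16 and 9.68 in healthy skin and 7.79, 9.54 and 8.40 in tumours (difference -0.71, standard error 0.49, limma adjusted p = 0.87). Tumour replicates 1 and 3 lay below all healthy-skin values and replicate 2 lay among them. Without replicate 2 the Npc2 difference was -1.19 (limma adjusted p = 0.574). The other 3 Npc2 probe sets were dimmer and positive, at 0.42, 0.54 and 0.71. On the last of these the groups did not overlap, but it was above background on 1 array only.

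The brightest Lipa probe set read 5.41, 5.86 and 6.30 in healthy skin and 5.59, 6.45 and 6.30 in tumours (difference 0.26, limma adjusted p = 0.928, and 0.09 without tumour replicate 2). The groups overlapped almost completely on it. The 2 dimmer Lipa probe sets showed another pattern, with tumour replicate 2 alone at 6.54 and 6.60 and every other array between 1.83 and 3.59. Their differences were 1.53 and 1.47 (limma adjusted p = 0.875 and 0.862), and 1 and 2 arrays, respectively, were above background.

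Psap, the precursor of the saposins that present sphingolipids to their hydrolases, read 7.22, 8.87 and 8.19 in healthy skin and 8.61, 10.37 and 8.00 in tumours. Tumour replicate 2 was the highest value, and the other tumour samples fell within the healthy-skin range. The difference was 0.90 (standard error 0.70, limma adjusted p = 0.875), 0.21 without tumour replicate 2, and 0.16 on the other Psap probe set. Asah1, the acid ceramidase, was high on 1 array of each group, with 6.90 in healthy-skin replicate 3 and 6.99 in tumour replicate 2 against 3.24 to 4.73 elsewhere (difference 0.20, standard error 1.19). Without tumour replicate 2 the Asah1 difference was -0.81 and without healthy-skin replicate 3 it was 1.25, so its sign rested on which of these arrays was kept.

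Ppt1 encodes the thioesterase that removes palmitate from proteins. Its brightest probe set was low in tumour replicate 2 and high in tumour replicate 3, with 6.36, 6.04 and 6.38 in healthy skin and 5.88, 4.49 and 7.62 in tumours (difference -0.26). The other 2 Ppt1 probe sets above background on all arrays had positive differences. One read 5.22, 4.94 and 5.60 against 7.18, 6.49 and 5.58, a difference of 1.17 (standard error 0.45, limma adjusted p = 0.75), with an overlap of tumour replicate 3 and healthy-skin replicate 3. The other differed by 0.90 (limma adjusted p = 0.852). The brightest probe set differed by 0.49 without tumour replicate 2 and by -1.08 without tumour replicate 3. The sign of the Ppt1 difference thus depended on the probe set and on single arrays. Tpp1, the tripeptidyl peptidase of the lysosome, differed by -0.43, with healthy skin between 5.49 and 7.17 and tumours between 4.92 and 6.71, by -0.87 without tumour replicate 2, and by 0.02 and 0.03 without healthy-skin replicate 2 or tumour replicate 1. Its dimmer probe set was high in tumour replicate 1 (6.60) and between 2.22 and 3.57 elsewhere.

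Of the 9 glycosidases, 5 were positive and 4 negative, and none of the 9 had an unadjusted limma p under 0.05 on its brightest probe set. Hexa, the alpha subunit of beta-hexosaminidase, which degrades GM2 ganglioside, had the highest difference among them. It read 5.50, 6.38 and 6.41 in healthy skin and 6.32, 9.44 and 6.73 in tumours. Tumour replicate 2 stood far above every other array, and tumour replicate 1 lay within the healthy-skin range. The difference was 1.40 (standard error 0.82, limma adjusted p = 0.863) and 0.43 without tumour replicate 2. Man2b1, the lysosomal alpha-mannosidase, had the same array on top with 7.31, above healthy skin at 4.37, 5.66 and 6.12 and the other tumour samples at 5.88 and 5.44 (difference 0.82, and 0.27 without tumour replicate 2).

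Gla, the alpha-galactosidase A deficient in Fabry disease, ranged from 3.84 to 4.78 in healthy skin and read 4.78, 5.69 and 1.91 in tumours. The value in tumour replicate 3 was below that array's background, and the difference was -0.27. It was 0.83 without this array and -1.05 without tumour replicate 2. Gaa, which breaks down lysosomal glycogen, differed by 0.42 with healthy skin at 6.19, 4.78 and 4.43 and tumours at 5.06, 6.24 and 5.34. Healthy-skin replicate 1 and tumour replicate 2 were its high arrays, and without them the difference was 0.95 and 0.07, respectively. Without healthy-skin replicate 3 it was 0.06. Gusb, the beta-glucuronidase, read 4.40, 1.44 and 1.87 and then 3.89, 4.85 and 1.90 (difference 0.98, standard error 1.00). It was above background on 3 arrays, 1 of healthy skin and 2 of tumours. Without tumour replicate 2 the Gusb difference was 0.32, and without healthy-skin replicate 1 it was 1.89. Glb1, the lysosomal beta-galactosidase, was dim, between 3.37 and 3.95 in healthy skin and between 2.75 and 3.67 in tumours (difference -0.42). Naglu, an enzyme of heparan sulfate breakdown, lay between 2.75 and 3.86 and between 3.51 and 4.34 (difference 0.41). Neu1, the lysosomal sialidase, differed by -0.06 on its brightest probe set, or by 0.24 without tumour replicate 2, and by 0.55 and 0.07 on the others.

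Fuca1, the alpha-L-fucosidase, had probe sets that disagreed in sign. The brightest read 7.30, 7.13 and 8.62 in healthy skin and between 6.76 and 7.47 in tumours, where replicate 1 was the highest and replicate 3 the lowest (difference -0.60, standard error 0.46, limma adjusted p = 0.874). On another, named because it was the only member probe set lower in tumours at an unadjusted p under 0.05, healthy skin had 6.39, 4.89 and 6.30 and tumours 4.63, 4.30 and 3.58. The groups did not overlap there, and tumour replicate 3 was below background. Its difference was -1.69 (standard error 0.50, limma adjusted p = 0.644). The remaining 2 Fuca1 probe sets differed by 0.70 and 0.002, and the latter was above background on no array.

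The sulfatases remove sulfate groups from glycosaminoglycans. All 3 had negative differences on their brightest probe set, each smaller than its confidence interval: -0.15 for Galns, -0.49 for Arsb and -0.24 for Sgsh. None of them had its highest value in tumour replicate 2. Sgsh was above background on all 6 arrays, with 5.23, 5.50 and 4.24 in healthy skin and 5.17, 4.63 and 4.46 in tumours, and its other probe set differed by 0.51. Galns and Arsb were dim, between 3.32 and 4.25 in healthy skin and between 2.52 and 4.17 in tumours. The other Arsb probe sets differed by -0.90 and 0.58, and were above background on 1 and on no array, respectively.

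Agreement between probe sets of a gene was poor. Of the 18 members with more than 1 probe set, 12 had differences of opposite sign and 6 of the same sign. The widest spans were those of Fuca1, from -1.69 to 0.70, and Lamp2, from -1.88 to 0.19. Many were dim, since 30 of the 58 probe sets were above background on all 6 arrays, 6 on none and the rest on some. Lamp2, Cln3, Man2b1, Neu1, Fuca1, Sgsh, Npc2 and Ppt1 had opposite signs also among probe sets above background on every array.

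**Figure D4:**
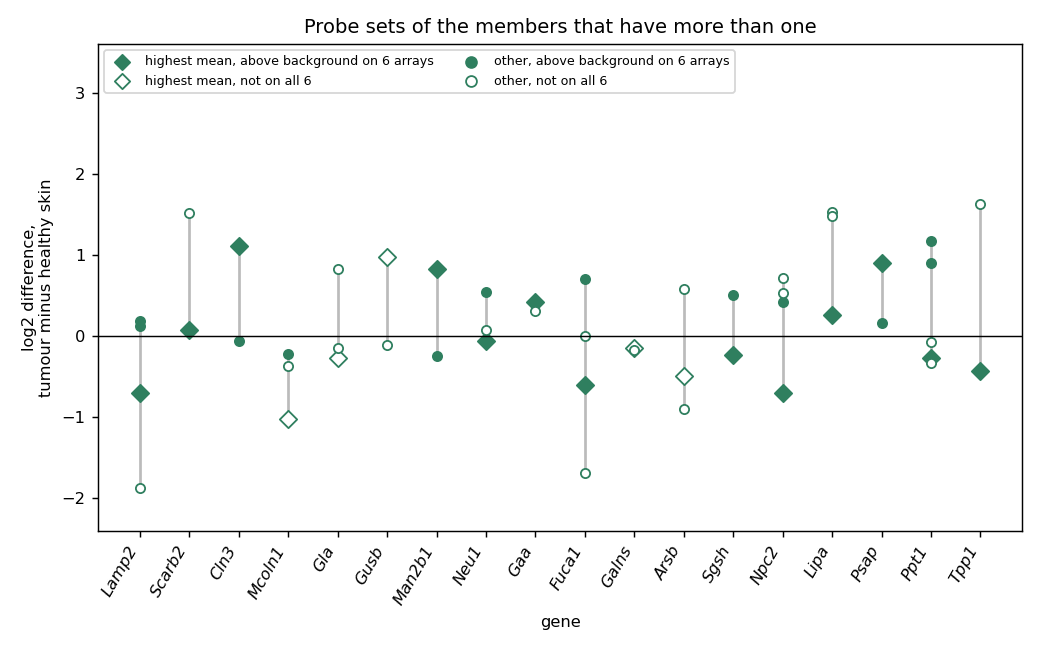
Log2 difference (vertical axis, tumour minus healthy skin) of every probe set of the 18 members with more than 1. Diamonds mark the probe set with the highest mean and circles the others, filled symbols were above background on all 6 arrays, and grey lines join the probe sets of a gene; in 12 of the 18 genes the line crosses zero.

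The clearest pattern among the members lay between tumour samples rather than between the groups. In 13 of the 26 genes (50%) tumour replicate 2 had the highest value of the 6 arrays, namely Lamp1, Scarb2, Laptm4a, Cln3, Atp6ap1, Gla, Hexa, Gusb, Man2b1, Gaa, Lipa, Psap and Asah1. For some of them a healthy-skin array was nearly as high: Lamp1 (8.14 against 8.13), Scarb2 (7.32 against 7.28), Gaa (6.24 against 6.19) and Asah1 (6.99 against 6.90). Over all genes this array was highest in 13% of cases. With dim genes left out (mean signal above 4) it was highest in 12 of 21 members and in 16.2% of 9237 genes. Compared with the mean of tumour replicates 1 and 3, tumour replicate 2 was higher in 20 of 26 members, and the median excess over all 26 was 1.00. Over all genes it was higher in 38.14% with a median of -0.18. It was lower in Ppt1, Neu1, Naglu, Sgsh, Fuca1 and Galns. For Ppt1 this rests on the brightest probe set. On another that was above background on all arrays, tumour replicate 2 was the highest of the 6 (6.79, with tumour replicate 1 at 6.53). The 13 genes above also depend on the probe set. On the other Cln3 probe set, above background on all arrays, tumour replicate 2 was the lowest of the 6 (3.47). On that of Man2b1 it was below healthy-skin replicate 1 (4.57 against 4.85). It was the highest on the other probe sets of Scarb2, Gaa, Lipa and Psap. Those of Gla and Gusb were above background on 1 array at most. The highest excesses were those of Asah1 (3.01), Hexa (2.91), Laptm4a (2.70), Gla (2.34), Lamp1 (2.28), Atp6ap1 (2.27) and Psap (2.07). The standard deviation was larger in tumours than in healthy skin for 19 of 26 members (73.08%), and for 44.79% of all genes. Without tumour replicate 2 the members' median was -0.14 with 12 of 26 positive. At an unadjusted limma p under 0.05, 0 members were then higher and 2 lower (Atp6ap1 and Npc2). The share of all genes in that fit was not computed. Again 0 members were called after adjustment, while 23 probe sets were called over the whole table. These values describe single arrays and carry no test.

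Other gene lists were high on the same array. Relative to the mean of healthy skin, the members averaged -0.14, 0.83 and -0.30 in tumour replicates 1, 2 and 3. The 15 macrophage markers averaged 0.14, 2.15 and 0.28 on these arrays. Their mean level ranged from 5.22 to 5.59 in healthy skin and from 5.51 to 7.52 in tumours. Of the 15, 13 had a positive difference, beside 57.34% of all genes. Of these, 5 had an unadjusted limma p under 0.05 (3.22% of all genes were higher at it) and 0 an adjusted one. Itgam was above background on no array. Csf1r, the receptor for colony-stimulating factor 1, read 8.16, 8.43 and 7.96 in healthy skin and 9.29, 11.24 and 9.52 in tumours, and the complement gene C1qc 3.01, 4.28 and 2.74 and then 4.43, 8.55 and 5.13. The list was not uniform. The mannose receptor gene Mrc1 read 6.34, 8.36 and 8.41 in healthy skin and 6.03, 8.05 and 3.77 in tumours, and the leukocyte gene Ptprc 6.37, 6.74 and 7.83 and then 4.10, 7.84 and 5.06, and these were the 2 with a negative difference. Cd68, a lysosomal glycoprotein of macrophages, was highest in healthy-skin replicate 1 (9.55) and differed by 0.01. Pericyte and smooth muscle markers averaged 0.84, 1.33 and -0.36, and fibroblast markers 0.09, 0.87 and -2.43. Sebocyte markers averaged -4.22, -1.58 and -4.11, below healthy skin on every tumour array but far higher in tumour replicate 2 than in the others. LEC markers averaged 0.72, 1.17 and 1.17 and pan-endothelial markers 1.57, 1.42 and 1.43, so neither set tumour replicate 2 apart from replicate 3. The Gapdh control probe sets, whose 3′ minus 5′ signal rises where amplified RNA is shorter, gave 3.72, 3.23 and 2.77 in healthy skin and 2.15, 4.10 and 2.29 in tumours (two-sided exact permutation p = 0.6, with 0.1 the smallest possible), and tumour replicate 2 was the highest. The same measure for Actb gave 0.38, 0.23 and -0.31 in healthy skin and 0.47, 0.60 and -0.63 in tumours (two-sided exact permutation p = 0.9). Tumour replicate 2 was again the highest, but tumour replicate 1, the lowest on Gapdh, came next. The part of the macrophage, pericyte, fibroblast and sebocyte signal and of RNA length in the members' pattern was not tested. In captured tissue, more cells of a type and more RNA per cell cannot be told apart. Mast cell and melanocyte markers averaged between -0.08 and 0.21 on the tumour arrays relative to healthy skin.

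**Figure D5:**
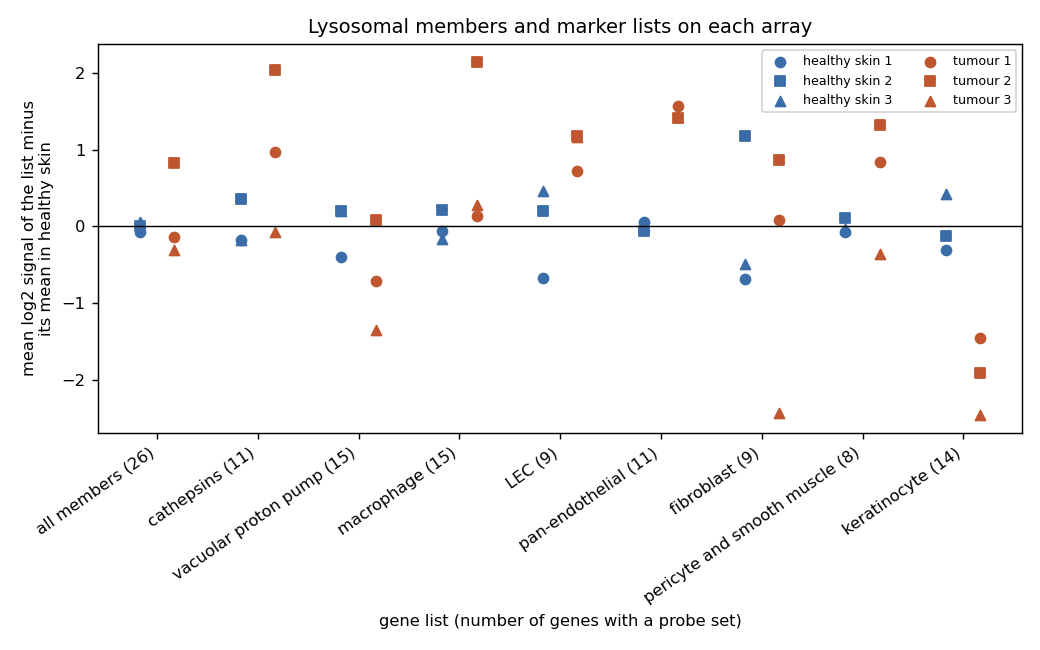
Mean log2 signal of 9 gene lists on each array minus the list's mean in healthy skin (vertical axis). Blue symbols are healthy-skin and orange symbols tumour samples, with replicate 1 as circles, 2 as squares and 3 as triangles; tumour replicate 2 stands at 0.83 for the lysosomal members, 2.04 for the cathepsins and 2.15 for the macrophage markers.

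Genes that work beside the members were read from lists fixed by function, and none of them passed the adjusted threshold in limma. For the counts of these lists, 57.34% of all genes were positive and 7.5% had an unadjusted limma p under 0.05. The cathepsins, the lysosomal proteases, had 10 of 11 positive with a median of 0.89, 1 of them at an unadjusted p under 0.05. They averaged 0.97, 2.04 and -0.07 in tumour replicates 1, 2 and 3. Ctsb differed by 2.80 (limma adjusted p = 0.517), Ctsl by 1.45 and Ctsh by 1.25. The difference between the cathepsins and the members was not tested. Among 15 other hydrolases and activators, 7 were positive and 8 negative (median -0.26), with 1 at an unadjusted p under 0.05. This was Galc, which degrades galactosylceramide, with a difference of 1.90 (limma adjusted p = 0.595), while Dnase2a differed by -1.93 and Pla2g15 by 0.99. The 17 other membrane proteins were split 9 to 8 (median 0.01), with the amino acid sensor Slc38a9 at 0.96 (limma adjusted p = 0.776), Laptm4b, a relative of Laptm4a, at -2.77 and the channel Tpcn1 at -0.53.

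The proton pump, which acidifies the lysosome, had 5 of 15 subunits positive and 10 negative (median -0.54). Atp6v1f differed by 1.15, Atp6v1c1 by -2.63 and Atp6v1a by -2.41 (limma adjusted p = 0.644, 0.71 and 0.713), the 3 subunits with an unadjusted p under 0.05. On average the subunits stood at -0.71, 0.09 and -1.35 in tumour replicates 1, 2 and 3, so replicate 2 was again the highest tumour sample. The 15 genes of mannose 6-phosphate tagging and sorting had 10 positive (66.67%, beside 57.34% of all genes), with a median of 0.24. Their averages were nearly equal at 0.23, 0.37 and 0.24. M6pr, 1 of the mannose 6-phosphate receptors, differed by 1.64, the sorting adaptor Gga2 by 2.05 and the retromer subunit Vps26a by -1.01 (limma adjusted p = 0.735, 0.684 and 0.644), and these were its 3 genes with an unadjusted p under 0.05. The 11 regulators of lysosome genes had 3 positive and 8 negative (median -0.44). Zkscan3, a repressor of autophagy and lysosome genes, was above background on 2 healthy-skin arrays and on no tumour array. Its healthy-skin mean was 2.07-fold the mean of the tumour arrays' background. The groups overlapped, since healthy-skin replicate 1 (2.62) was itself below background and below tumour replicate 3 (3.11) (limma adjusted p = 0.716). Lamtor1, part of the complex that anchors mTORC1 to the lysosome, differed by -1.31 and Flcn, the folliculin gene, by -1.40.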

How the data were processed

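The data were signals of 6 mouse Affymetrix arrays, 1 per sample. The authors deposited intensity values that came from RMA, per the submitters' processing notes (background correction, quantile normalization and summary per probe set). Software, probe set definitions and filters: not given in the sources used here. That the scale is linear was inferred from the range, with array medians of 9.49 to 10.93 and maxima up to 33063. Per the labels' protocols, 1 round of Ribo-SPIA amplification preceded labelling.

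Log2 was taken with no pseudocount, and 64 of the 45101 probe sets, all controls, were left out. Symbols came from the platform annotation (34945 probe sets with 1 symbol, 932 with several, 9160 with none). The test was limma (version 3.58.1, R 4.3.3; two-sided, lmFit then eBayes with a prior of 2.82 degrees of freedom) of tumour against healthy skin, adjusted by Benjamini-Hochberg over all 45037 probe sets, threshold 0.05, with no block. The self-test on simulated data used all of them. The members and lists were chosen with earlier results of these data known, so lists are described by counts and medians and have no test. Values of every array were due for members with an unadjusted p under 0.05 or groups that do not overlap, and for Lamp1, Lamp2, Npc1, Npc2 and Psap. Others were added after their values were seen. Of each other lysosomal list the 3 genes with the smallest p were named. Promoters were matched by symbol, and their orientation was checked on 1671 overlapping pairs of opposite strand, none of which disagreed. Alternatives were a filter on dim probe sets (mean above 4), quantile normalization, centring on medians, a replicate block, trend and robust options, array weights, a pseudocount of 16, averaging of probe sets, and each array left out.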

Additional observations from a re-analysis of the deposited data

How the results depend on the processing

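No member probe set had an adjusted p under 0.05 in limma under any of the 14 alternatives. Of the 26 members, 14 kept their sign under every alternative run, 10 positive and 4 negative, among them Laptm4a (1.13 to 2.54), Cln3 (0.52 to 1.40), Hexa (0.43 to 1.99), Psap (0.21 to 1.39) and Mcoln1 (-1.55 to -0.54). The other 12 changed sign at least once. The dim filter, the replicate block and the trend and robust options leave each difference as in the main fit, so they could not turn a sign. The count of called probe sets over the whole table was 2, and 18 with dim probe sets left out, 22 with array weights, 1 with trend and robust options, 0 after centring on array medians and 0 with the pseudocount. It ranged from 0 to 23 with 1 array left out, 23 being without tumour replicate 2. Members higher at an unadjusted p under 0.05 numbered 2, but 1 with dim probe sets left out, after centring, with trend and robust options, with the pseudocount and with averaged probe sets, and from 0 to 2 with 1 array left out. Members lower numbered 0, 1 with array weights, and from 0 to 2 with 1 array left out. Members whose groups did not overlap with tumours higher numbered 1, but 3 after quantile normalization, 2 after centring and 2 with averaged probe sets, and from 1 to 4 with 1 array left out. With tumours lower they ranged from 0 to 4. Shares of all genes were not computed under the alternatives, so these counts of members cannot be set against the shares of the main fit. Groups separate more easily where an array is left out. The median difference of the members ranged from -0.14 to 0.27 with 1 array left out. The causes were not tested, beyond fewer arrays or probe sets in the fit.

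With the replicate number as a block (replicate block), 0 probe sets were called over the whole table and 1 member, Laptm4a (limma adjusted p = 0.626), was higher at an unadjusted p under 0.05. Deviations of same-numbered arrays correlated at 0.04, 0.10 and -0.01, and those of differently numbered arrays at -0.15 to 0.12. With 3 arrays per group these values cannot show whether the numbers pair the samples. What could be measured was limited by signal over background, since 6 member probe sets were above it on no array.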
